A study of Mus musculus with 4 samples.

Results

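Collagens are the triple-helical proteins of the extracellular matrix. Their genes were taken here as every gene symbol of the form Col, a number, the letter a and a number. That rule found 44 genes among the 57126 features listed for each library, and used no measured value. In developing brain tissue, fibrillar collagens are known chiefly from the meninges. Type IV collagen forms the network of the basement membranes that underlie the meninges, the blood vessels and the end feet of radial glia. Members of the other structural classes decorate fibrils, anchor basement membranes or span the plasma membrane.

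The study compared cerebral cortex of mice lacking Tsukushi (Tsku, a secreted small leucine-rich proteoglycan) with wild type, by single-cell RNA sequencing with a bead-based benchtop kit. The 4 libraries came from 1 KO and 1 WT mouse at postnatal day 0 (P0) and 1 KO and 1 WT mouse at embryonic day 14.5 (E14.5), so a group is 1 animal and no difference has a replicate check or a test. The labels give neither the strain, the allele, the sex nor the region of cortex, and tissue was dissociated with trypsin, 15000 cells entering each reaction. Analysed barcodes numbered 1430 in P0 KO, 1044 in P0 WT, 4107 in the E14.5 library labelled KO and 618 in E14.5 WT. They held 8812049 counts in P0 KO, 6025289 in P0 WT, 14404051 in the library labelled E14.5 KO and 5584291 in E14.5 WT. The median barcode held 5059 counts in P0 KO and 4806.5 in P0 WT, and 2829 counts in the library labelled E14.5 KO against 7316 in E14.5 WT.

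Tsku itself had 0 counts in P0 KO and 42 in P0 WT. The E14.5 library labelled KO held 74 Tsku counts, against 52 in E14.5 WT, which goes against its label. Xist, the transcript of the inactive X chromosome, had 6707 counts in the library labelled E14.5 KO and 3 in E14.5 WT, so these animals differed in sex. P0 KO held 1 Xist count and P0 WT 0. P0 KO and the library labelled E14.5 KO thus differed in Xist and in Tsku as well as in age. Every direction drawn from that library below is therefore a direction of the library labelled E14.5 KO, not of the knockout. Each of 3 pairs of libraries shared 2 cell barcodes and the other 3 pairs shared none.

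All 44 genes together made up 6210 counts in P0 KO, 2205 in P0 WT, 16662 in the library labelled E14.5 KO and 5091 in E14.5 WT. As counts per 1000000 counts of the library (CPM) this was 705 CPM (95% Poisson interval 687 to 722) in P0 KO and 366 (351 to 382) in P0 WT. It was 1157 CPM (1139 to 1174) in the library labelled E14.5 KO and 912 (887 to 937) in E14.5 WT. P0 WT was the lowest library and the library labelled E14.5 KO the highest, and no interval overlapped another. All intervals here cover counting error only, and not differences between animals or dissections. In a library sum, fewer cells of a type and less RNA per cell cannot be told apart. A count was found for 40 members in P0 KO, 39 in P0 WT, 42 in the library labelled E14.5 KO and 41 in E14.5 WT. The 36 members with at least 30 counts over the 4 libraries are described below. The 8 others were Col4a3 with 24 counts, Col20a1 with 15, Col6a5 with 14, Col24a1 and Col6a6 with 9 each, Col17a1 and Col6a4 with 2 each, and Col10a1 with 0.

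Barcodes were assigned to gates by marker genes that included no collagen. A fibroblast, endothelial, mural, choroid plexus or microglial gate took barcodes with at least 4 of 12 markers of that type, and a barcode that met 2 or more of these 5 was called mixed. Of the rest, the oligodendroglial gate needed 4 of its 12 markers, and the astroglial gate (radial glia and astrocytes) and the neuronal gate needed 5 of 12 and more than the other list gave. The fibroblast gate held 15 barcodes in P0 KO (1.05% of the library, 95% Clopper-Pearson interval 0.588 to 1.72) and 6 in P0 WT (0.575%, 0.211 to 1.25). It held 82 in the library labelled E14.5 KO (2.00%, 1.59 to 2.47) and 10 in E14.5 WT (1.62%, 0.779 to 2.96). The P0 intervals overlap, as do the E14.5 intervals. As a check of the tissue label, neuronal barcodes were 52.6% of P0 KO, 65.6% of P0 WT, 70.0% of the library labelled E14.5 KO and 74.9% of E14.5 WT, and those with markers of cortical projection neurons were between 39.7% and 51.3% of a library.

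Summed collagen was concentrated in few barcodes. Fibroblast, endothelial, mural and mixed barcodes were 3.72% of all barcodes and held 69.5% of all collagen counts over the 4 libraries. The fibroblast gate reached 22446 (21617 to 23298) CPM in P0 KO, 15520.5 (14394 to 16711) in P0 WT, 21194 (20741 to 21655) in the library labelled E14.5 KO and 16869 (15969 to 17807) in E14.5 WT. The endothelial gate reached 2628 (2329.9 to 2954) CPM in P0 KO, 1573 (1337 to 1838) in P0 WT, 3277 (3011 to 3559.7) in the library labelled E14.5 KO and 2220.5 (1778 to 2739) in E14.5 WT. The astroglial gate lay lower still, at 442 (417 to 468) CPM in P0 KO, 379 (348 to 411) in P0 WT, 477 (446 to 509) in the library labelled E14.5 KO and 459.9 (409.8 to 514) in E14.5 WT. The neuronal gate was taken as a level for comparison, in which free RNA and RNA of the cells themselves cannot be told apart. This gate held 148 (137 to 161) CPM in P0 KO and 88.8 (79.3 to 99.1) in P0 WT. At E14.5 it held 98.9 (92.7 to 105) in the library labelled E14.5 KO and 84.9 (76.0 to 94.5) in E14.5 WT. Fibroblast barcodes varied widely among themselves, with medians of 21072 CPM in P0 KO, 14378 in P0 WT, 21011 in the library labelled E14.5 KO and 16155 in E14.5 WT. In P0 KO they ran between 5623 and 39557 CPM, and in P0 WT between 4402 and 22467 CPM, so the barcodes of both libraries overlap. One barcode held 26.1% of the gate's collagen counts in P0 KO and one held 33.6% in P0 WT.

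**Figure D1:**
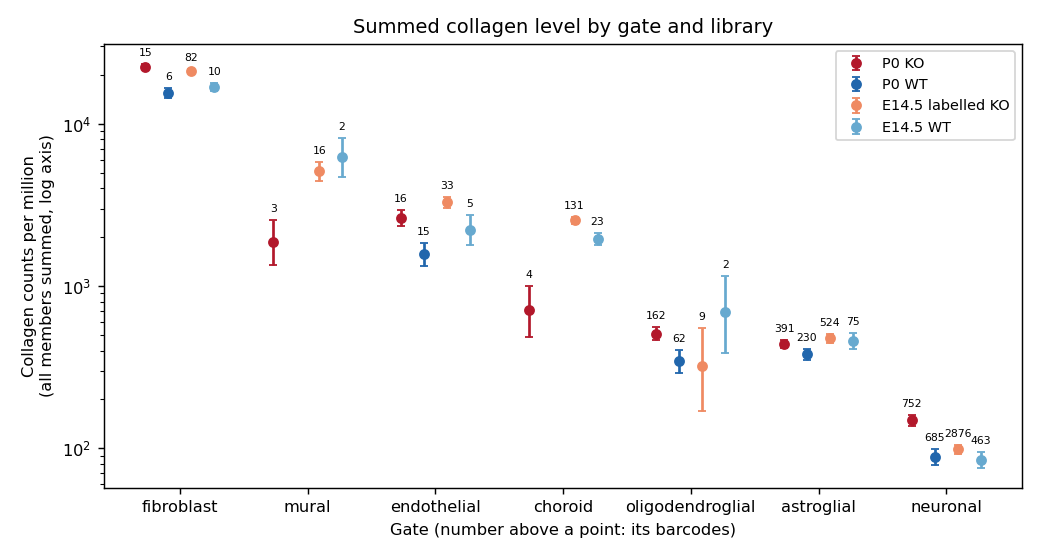
Summed collagen level (CPM, log axis) by gate and library. Points are single libraries, bars are 95% Poisson intervals and the number above a point is its barcodes; the fibroblast gate lies between 15520.5 and 22446 CPM and the neuronal gate between 84.9 and 148 CPM.

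Over the 4 libraries the 36 described members were grouped by the gate that held most of their counts. This was the fibroblast gate for 14 members, the astroglial gate for 8, the choroid gate for 5, mixed barcodes for 4, the neuronal gate for 3 and the oligodendroglial gate for 2. These are shares of a gene's own counts, so a large gate such as the neuronal one can hold many counts at a low level per barcode.

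**Figure D2:**
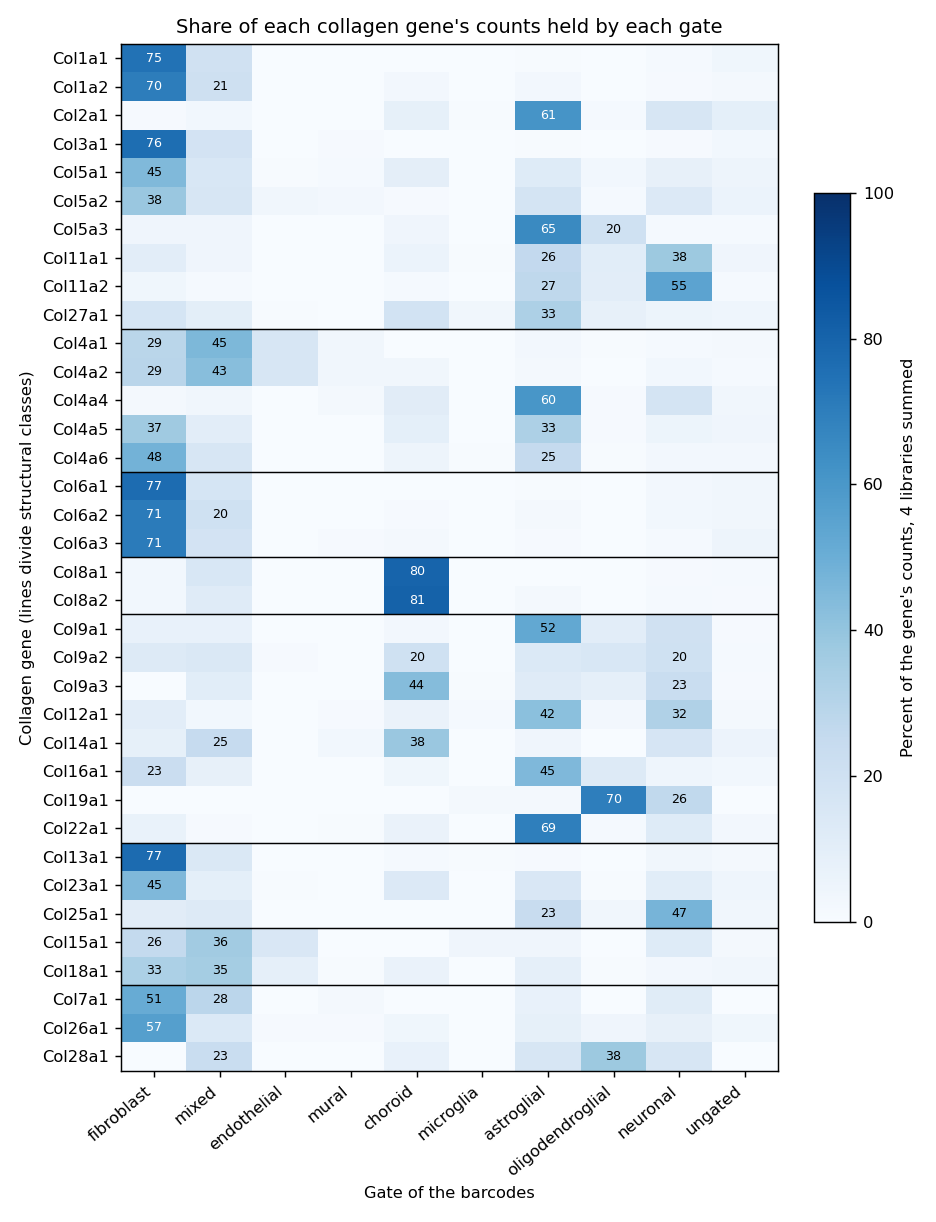
Share of each collagen gene's counts (percent, 4 libraries summed) held by each gate; genes run down the page by structural class. Col1a1, Col3a1 and the type VI genes are dark in the fibroblast column, Col8a1 and Col8a2 in the choroid column, and Col2a1, Col22a1, Col5a3 and Col4a4 in the astroglial column.

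Interstitial fibrillar collagens were genes of the fibroblast gate. Col1a1 and Col1a2 encode the chains of type I collagen, and Col3a1 the homotrimer of type III that accompanies it. The fibroblast gate held 74.5% of Col1a1 counts, 70.1% of Col1a2 counts and 76.0% of Col3a1 counts. In that gate Col3a1 measured 3834 (3496 to 4196) CPM in P0 KO and 1589.6 (1244 to 2002) in P0 WT, and 5762 (5526 to 6004) in the library labelled E14.5 KO and 3163 (2780.0 to 3584) in E14.5 WT. Within fibroblast barcodes it was thus higher in P0 KO and in the library labelled E14.5 KO than in the WT library of the same age, beyond counting error, from 6 WT barcodes at P0 and 10 at E14.5. In the neuronal gate Col3a1 had 0.483 CPM in P0 KO, 0.279 in P0 WT, 3.70 in the library labelled E14.5 KO and 1.02 in E14.5 WT. Col1a2 in fibroblast barcodes had 8722 CPM in P0 KO, 5497 in P0 WT, 5805 in the library labelled E14.5 KO and 5992 in E14.5 WT. Col1a1 there had 1605 CPM in P0 KO, 949 in P0 WT, 2063 in the library labelled E14.5 KO and 1453 in E14.5 WT. P0 WT was the lowest library for both genes.

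The remaining fibrillar genes were spread more widely. Col5a1 and Col5a2 encode chains of type V collagen, which is known to nucleate type I fibrils. The fibroblast gate held 44.9% of Col5a1 counts and 38.4% of Col5a2 counts, and the astroglial gate 12.1% and 17.96%. Col2a1, the type II collagen best known from cartilage, had 61.0% of its counts in the astroglial gate and 0.915% in fibroblasts. Col5a3, another type V chain, had 65.3% in the astroglial gate and most of the rest in the oligodendroglial gate. Col11a1, a chain of type XI collagen, was spread over neuronal (37.8%), astroglial (26.0%), oligodendroglial (10.8%) and fibroblast (10.4%) barcodes. Among the gate sums of P0 KO, Col11a1 was highest in the fibroblast gate at 178 CPM, against 87.7 in the oligodendroglial and 28.5 in the neuronal gate. The fibroblast gate of the library labelled E14.5 KO held 186 CPM. Its partner Col11a2 had 54.5% of its 77 counts in neuronal barcodes. Col27a1, a fibrillar collagen with a shorter triple helix, was held by the astroglial (32.6%), choroid (18.6%) and fibroblast (16.9%) gates.

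Partner chains were not counted in one ratio in every gate. In fibroblasts Col1a2 made up 84.5% (82.4 to 86.4) of the Col1a2 and Col1a1 counts in P0 KO, 85.3% (80.7 to 89.1) in P0 WT, 73.8% (72.2 to 75.3) in the library labelled E14.5 KO and 80.5% (77.0 to 83.6) in E14.5 WT, with 95% Clopper-Pearson intervals in brackets. The interval of the library labelled E14.5 KO lies below those of the other 3 libraries, so gates are compared within a library. In choroid barcodes the share was 100% (95.1 to 100) in the library labelled E14.5 KO and 97.5% (91.3 to 99.7) in E14.5 WT, each above the fibroblast interval of its own library. In astroglial barcodes it was 97.1% (89.9 to 99.6) in P0 KO, 100% (88.8 to 100) in P0 WT, 90.2% (78.6 to 96.7) in the library labelled E14.5 KO and 84.6% (54.6 to 98.1) in E14.5 WT. These lie above the fibroblast interval in P0 KO and in the library labelled E14.5 KO and overlap it in both WT libraries. Over the 4 libraries choroid barcodes held 154 Col1a2 and 2 Col1a1 counts, and astroglial barcodes 155 and 9. These are shares of counts, not corrected for transcript length.

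Type IV collagen is the defining network of basement membranes, built from 6 chains whose genes lie in head-to-head pairs. Col4a1 and Col4a2 encode the chains found in nearly all basement membranes. Their counts lay mostly in mixed barcodes (45.4% of Col4a1), the fibroblast gate (28.7%) and the endothelial gate (16.1%). Endothelial Col4a1 measured 1422 (1205 to 1667) CPM in P0 KO and 886 (712 to 1090.3) in P0 WT, and 1545 (1364 to 1743) in the library labelled E14.5 KO and 1123 (816 to 1508) in E14.5 WT. Fibroblast Col4a1 measured 2035 CPM in P0 KO, 2031 in P0 WT, 1372 in the library labelled E14.5 KO and 1260.0 in E14.5 WT. The level in fibroblast barcodes was nearly the same in both P0 libraries, while the endothelial level was higher in P0 KO than in P0 WT beyond counting error. That endothelial comparison rests on 16 barcodes in P0 KO and 15 in P0 WT. One barcode held 14.9% of this gate's summed collagen counts in P0 KO and one held 46.8% in P0 WT. Col4a2 gave 40.3% (37.9 to 42.7) of the Col4a2 and Col4a1 counts in fibroblasts, 39.4% (36.2 to 42.7) in endothelial and 39.8% (32.7 to 47.2) in mural barcodes, intervals that all overlap. In the choroid gate Col4a2 gave 87.2% (78.3 to 93.4), from 75 Col4a2 and 11 Col4a1 counts. Within a library it gave 89.2% (79.1 to 95.6) in choroid and 42.1% (38.9 to 45.3) in fibroblast barcodes of the library labelled E14.5 KO, and 83.3% (58.6 to 96.4) in choroid and 36.8% (29.2 to 44.9) in fibroblast barcodes of E14.5 WT, intervals that do not overlap in either library. The start sites of this pair lie 21 bases apart and the annotated genes overlap on opposite strands. Whether the counting used strand is not stated, and without strand reads from the overlap cannot be told apart.

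The minor type IV chains had other locations. Col4a3 and Col4a4 encode chains known from kidney and inner ear basement membranes. Col4a4 had 60.5% of its counts in astroglial barcodes, where 75 Col4a4 counts stood beside 0 of Col4a3. In the choroid gate the same pair had 14 and 15 counts. Col4a5 and Col4a6 encode chains of smooth muscle and epithelial basement membranes. The fibroblast gate held 37.1% of Col4a5 and 47.8% of Col4a6 counts, and the astroglial gate 32.5% and 25.4%. Col4a6 gave 25.6% (21.3 to 30.3) of the pair's counts in fibroblasts and 17.2% (13.1 to 22.0) in astroglial barcodes, intervals that overlap.

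**Figure D3:**
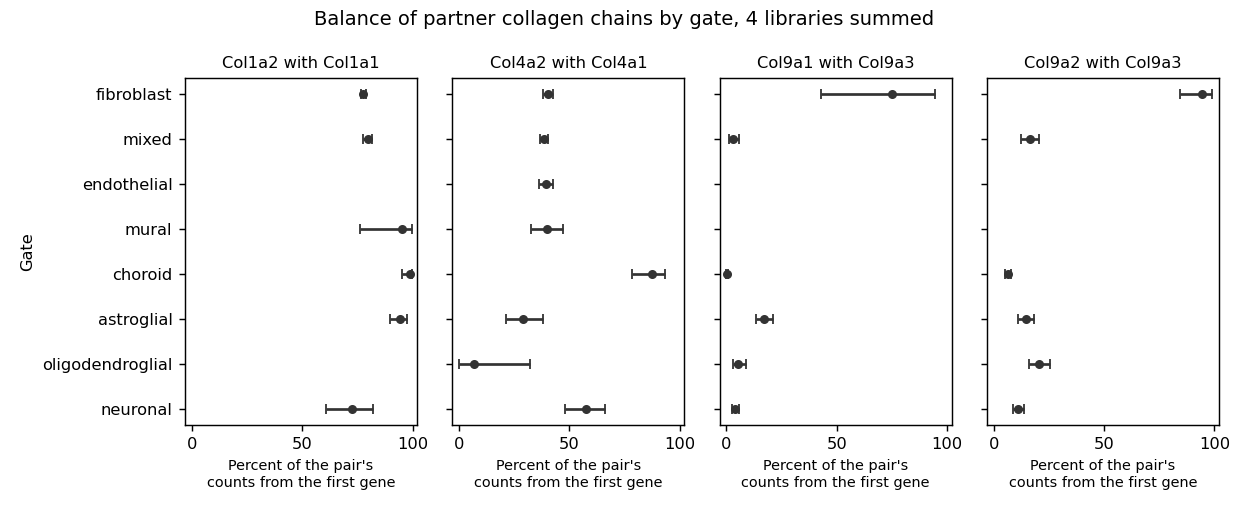
Balance of partner collagen chains by gate. The horizontal axis is the percent of the pair's counts that came from the first-named gene, 4 libraries summed although libraries of both ages enter the gates unequally, and bars are 95% Clopper-Pearson intervals; for Col4a2 with Col4a1 the choroid point at 87.2% stands apart from the fibroblast point at 40.3%.

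Col8a1 and Col8a2 encode type VIII collagen, a hexagonal network known from the basement membrane of the corneal endothelium. The choroid gate held 79.9% of Col8a1 and 80.7% of Col8a2 counts. Col8a1 had 1 count in P0 KO, 1 in P0 WT, 192 in the library labelled E14.5 KO and 55 in E14.5 WT. Col8a2 had 4 counts in P0 KO, 1 in P0 WT, 172 in the library labelled E14.5 KO and 41 in E14.5 WT. Counts were near 0 in both P0 libraries, which held 4 (KO) and 0 (WT) choroid barcodes against 131 in the library labelled E14.5 KO and 23 in E14.5 WT.

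The promoter windows of 2 gene pairs are shown because the members of each pair shared their gate: Col8a1 and Col8a2, which lie on different chromosomes and were both choroid genes, and Col4a5 and Col4a6, which start 1343 bases apart on opposite strands of the X chromosome. They come from RefSeq (GRCm38.p6), run from 250 to 41 bases before the start site and are written 5′ to 3′ on the gene's strand. Capitals mark GC boxes (GGGCGG or its complement CCGCCC) and CCAAT boxes (CCAAT or ATTGG). The windows are chr16:57754778-57754987 (minus strand) for Col8a1, chr4:126286544-126286753 (plus) for Col8a2, chrX:141475169-141475378 (plus) for Col4a5 and chrX:141474117-141474326 (minus) for Col4a6.
Col8a1: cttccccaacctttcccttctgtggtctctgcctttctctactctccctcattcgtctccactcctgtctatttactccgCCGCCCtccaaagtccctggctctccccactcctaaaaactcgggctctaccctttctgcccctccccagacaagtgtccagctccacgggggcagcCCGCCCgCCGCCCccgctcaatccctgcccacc
Col8a2: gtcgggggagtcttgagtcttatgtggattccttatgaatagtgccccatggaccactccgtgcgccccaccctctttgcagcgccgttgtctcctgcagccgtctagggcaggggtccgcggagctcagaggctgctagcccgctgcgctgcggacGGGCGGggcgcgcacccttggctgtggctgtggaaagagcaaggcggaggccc
Col4a5: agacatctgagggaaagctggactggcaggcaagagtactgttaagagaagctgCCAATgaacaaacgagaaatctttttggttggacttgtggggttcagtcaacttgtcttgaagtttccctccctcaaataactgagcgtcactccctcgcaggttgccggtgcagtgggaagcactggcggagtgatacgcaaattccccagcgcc
Col4a6: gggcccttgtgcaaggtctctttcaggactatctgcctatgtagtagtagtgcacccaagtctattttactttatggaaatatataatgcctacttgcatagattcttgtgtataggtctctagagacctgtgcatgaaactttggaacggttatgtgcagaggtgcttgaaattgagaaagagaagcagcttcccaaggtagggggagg
Col8a1 carried 3 GC boxes and Col8a2 carried 1, in windows of 61.9% and 66.2% G and C. Col4a5 carried 1 CCAAT box and no GC box, and Col4a6 neither, at 51.4% and 43.8% G and C. On both strands a GC box lay in 26.7% of all 32851 windows of this length and in 18 of 38 windows of collagen genes (35 of the 44 genes had a window), and a CCAAT box in 29.9% and in 10 of 38. The letters TAATCC, the core bound by OTX factors, lay in 5.43% of all windows and in none of the 38. A match describes letters in a window and is not a shown binding site.

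Type VI collagen forms beaded filaments around cells. Col6a1, Col6a2 and Col6a3 encode its 3 main chains, and the fibroblast gate held 76.6%, 70.7% and 71.1% of their counts. As a class, type VI genes measured 19.3 CPM in P0 KO, 10.1 in P0 WT, 47.2 in the library labelled E14.5 KO and 20.8 in E14.5 WT. In fibroblast barcodes Col6a1 had 535 CPM in P0 KO, 508 in P0 WT, 469 in the library labelled E14.5 KO and 270.0 in E14.5 WT, and Col6a3 had 292 CPM in P0 KO, 287 in P0 WT, 309 in the library labelled E14.5 KO and 309 in E14.5 WT. The Col6a3 levels differed by less than their counting error.

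Fibril-associated collagens do not form fibrils but bind to them. Col9a1, Col9a2 and Col9a3 encode type IX collagen, a heterotrimer in cartilage, and here their counts were far from equal. The choroid gate held 1177 Col9a3 counts, 79 of Col9a2 and 3 of Col9a1. Of the Col9a1 and Col9a3 counts in choroid barcodes, Col9a1 made up 0% (0 to 0.393) in the library labelled E14.5 KO and 0.833% (0.101 to 2.98) in E14.5 WT. In astroglial barcodes it made up 17.3% (12.6 to 22.9) in P0 KO, 26.0% (17.6 to 36.0) in P0 WT, 4.55% (0.555 to 15.5) in the library labelled E14.5 KO and 0% (0 to 16.1) in E14.5 WT. The intervals of both gates overlap in E14.5 WT and do not overlap in the library labelled E14.5 KO. The P0 and E14.5 astroglial intervals overlap in the KO-labelled pair and do not overlap in WT. Fibroblasts held 51 Col9a2 and 3 Col9a3 counts. Col9a3 overlaps Tcfl5 on the other strand, so reads of these genes cannot be told apart without strand. Col9a3 was detected in 101 of 131 choroid barcodes in the library labelled E14.5 KO and in 16 of 23 in E14.5 WT, which is 77.1% (labelled KO) and 69.6% (WT). With each barcode thinned to 1500 counts the shares were 69.5% in the library labelled KO and 52.2% in WT. Thinned neuronal barcodes had a Col9a3 count in 6.52% (P0 KO), 4.23% (P0 WT), 2.99% (library labelled E14.5 KO) and 2.38% (E14.5 WT), and unthinned in 18.2% (P0 KO), 12.7% (P0 WT), 5.49% (labelled E14.5 KO) and 13.6% (E14.5 WT).

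Of the other fibril-associated genes, Col16a1 and Col22a1 had 44.9% and 69.5% of their counts in astroglial barcodes. Col22a1 is known from tissue junctions such as that of muscle and tendon. Col12a1, known from tendon and dense connective tissue, was held by astroglial (41.9%) and neuronal (31.7%) barcodes. Col14a1, related to Col12a1, had 38.4% of its 73 counts in choroid barcodes. Col19a1, a minor collagen of basement membrane zones, had 69.8% of its 53 counts in oligodendroglial barcodes.

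Transmembrane collagens differed by gate as well. Col13a1, which lies at adhesion sites and neuromuscular junctions, had 77.0% of its counts in fibroblasts, and Col23a1 had 45.1%. Fibroblast Col23a1 measured 122 (68.1 to 201) CPM in P0 KO and 375 (219 to 601) in P0 WT, the opposite order to Col3a1. That order rests on 15 P0 KO and 6 P0 WT fibroblast barcodes. Over the library sums Col23a1 had a log2 ratio of 0.22 (-0.37 to 0.82), and 1 barcode held 25% of its P0 WT counts. Col25a1, which is cut from the neuronal surface and found in amyloid plaques, had 46.9% of its 64 counts in neuronal barcodes. The multiplexins Col15a1 and Col18a1 are basement membrane proteoglycans, Col18a1 being the source of endostatin. Col18a1 counts lay in mixed (35.2%), fibroblast (33.1%), astroglial (8.90%) and endothelial (8.62%) barcodes. Col15a1 counts lay in mixed (36.3%), fibroblast (25.7%) and endothelial (15.2%) barcodes, and 25 of the 36 Col15a1 counts of E14.5 WT were in 1 fibroblast barcode (69.4%). Col7a1, the anchoring fibril collagen of skin, had 51.0% and Col26a1 56.6% in fibroblasts. Col28a1, known from peripheral glia, had 37.5% of its 56 counts in oligodendroglial barcodes.

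At P0, collagen as a whole was higher in KO than in WT cortex. The summed log2 ratio was 0.95 (95% interval 0.88 to 1.02), a 1.93-fold difference. A member was called at a log2 ratio of 1 or more in size with at least 30 counts over both libraries. Of 31 members measured, 13 were higher and 0 lower in P0 KO, while 4.79% of all 13828 genes measured passed the same threshold in either direction (3.75% higher, 1.05% lower). The members' median log2 ratio was 0.91, against 0.05 over all genes, and 26 of 31 lay above 0. Fibrillar genes measured 335 CPM in P0 KO and 135 in P0 WT, type IV genes 170.3 in KO and 116 in WT, and fibril-associated genes 132 in KO and 75.5 in WT. Each of these sums was higher in KO.

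Among the highest ratios were those of the interstitial collagens. Col3a1 had 523 counts in P0 KO and 86 in P0 WT, a log2 ratio of 2.06 (95% interval 1.72 to 2.40). Col1a1 had 219 KO and 43 WT counts, at 1.80 (1.32 to 2.31), and Col1a2 1315 KO and 297 WT counts, at 1.60 (1.42 to 1.78). In P0 WT one barcode held 37.2% of the Col3a1 counts and one held 37.2% of the Col1a1 counts. The type V genes Col5a1, with 83 KO and 22 WT counts, and Col5a2, with 187 KO and 62 WT counts, had log2 ratios of 1.37 (0.67 to 2.12) and 1.04 (0.62 to 1.48). Type VI genes had ratios of 1.14 (0.45 to 1.88) for Col6a1 and 1.27 (0.42 to 2.21) for Col6a2, and Col6a3 stayed under the threshold at 0.67 (-0.15 to 1.56). Also called were Col2a1 at 1.03, Col4a6 at 1.06, Col12a1 at 1.15, Col13a1 at 1.42, Col19a1 at 1.54 and Col7a1 at 1.64. Just under the threshold was Col9a3, with 643 counts in P0 KO and 221 in P0 WT, at 0.99 (0.77 to 1.22). The main vascular chains were closer to 0, with Col4a1 at 0.45 (0.26 to 0.63) and Col4a2 at 0.66 (0.42 to 0.90). The 5 members below 0 were Col4a4, Col5a3, Col22a1, Col28a1 and Col9a1, between -0.32 and -0.10, and each of their intervals includes 0.

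The fibroblast gate, which held most counts of the interstitial genes, was 1.05% of P0 KO and 0.575% of P0 WT barcodes, and the share of this gate in the library ratios was not tested. Without the fibroblast, endothelial, mural and mixed barcodes the summed log2 ratio was 0.66, and 7 of 24 members measured were higher. Col1a2 then had a ratio of 0.55 and Col4a1 of 1.51, while Col5a2 (0.96), Col4a6 (0.17) and Col6a2 (0.19) were under the threshold as well. Without the barcode with the most collagen counts in each library, Col5a2 (0.90), Col6a1 (0.87) and Col6a2 (1.00) were under the threshold. With barcodes thinned to 1500 counts 14 members could be measured. Of the members called at full depth, Col2a1 (0.95), Col7a1 (0.96) and Col4a6, Col6a1 and Col6a2 (0.55 each) then lay under the threshold, whether measured or not. Col2a1 was also under it with TMM (0.99) and median-of-ratios (0.98) scaling, and Col4a6 with the top 5% of Scrublet scores removed (0.93).

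**Figure D4:**
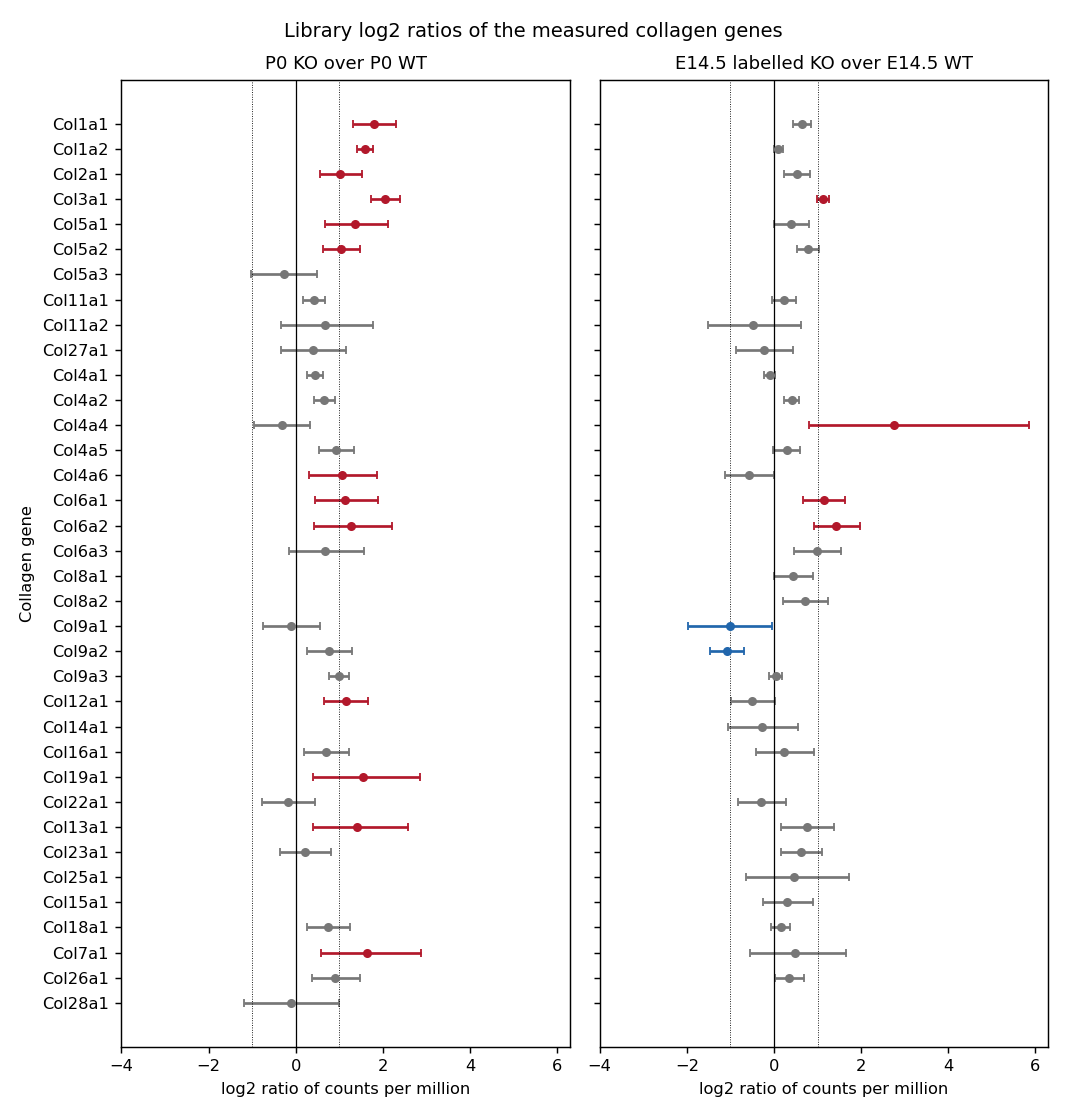
Log2 ratio of library CPM for each measured collagen gene, P0 KO over P0 WT on the left and the E14.5 library labelled KO over E14.5 WT on the right. Points are ratios of 1 library to 1 library, bars are 95% intervals for counting error and dotted lines mark the 2-fold threshold; 13 genes lie past the right-hand line at P0, led by Col3a1 at 2.06.

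Within the astroglial gate at P0, 2 of 22 members measured were higher in KO and 0 lower, against 9.13% of all genes (5.99% higher, 3.14% lower; at least 10 counts over both sums), a share close to that of the members. Both were the widespread chains of type IV. Col4a1 had 47 counts in 37 P0 KO barcodes and 6 counts in P0 WT, a log2 ratio of 2.14 (0.91 to 3.65). Col4a2 had 19 KO and 2 WT counts, at 2.42 (0.36 to 5.56). In neuronal barcodes of the same libraries Col4a1 measured 2.66 CPM in KO and 2.23 in WT, which differ by less than the counting error. The P0 oligodendroglial gate held 162 KO and 62 WT barcodes. There, 3 of 12 members measured were higher in KO and 3 lower, against 13.3% of all genes (8.57% higher, 4.75% lower). Col9a3 had 196 counts in KO and 34 in WT, at 1.28 (0.75 to 1.85). Its share of barcodes with a count was 42.0% in KO and 32.3% in WT, and 17.3% in KO and 17.7% in WT after thinning to 1500 counts. The thinned shares give no order between the libraries. Col19a1 had 30 counts in 17 KO barcodes and 2 in WT, a ratio of 2.66 (0.68 to 5.77), and Col26a1 had 20 KO and 4 WT counts. Lower in KO were Col28a1 with 10 KO and 11 WT counts, Col5a3 with 6 KO and 9 WT counts, and Col9a1 with 5 KO and 5 WT counts. These 3 calls rest on few counts. Equal Col9a1 counts gave a lower level in KO because the gate sum was 992088 counts in KO and 418656 in WT.

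In the neuronal gate at P0, Col12a1 had the highest ratio of any member measured. It held 76 counts in 39 P0 KO barcodes and 5 counts in 3 P0 WT barcodes, which is 18.4 CPM in KO and 1.40 in WT, and a log2 ratio of 3.72 (2.43 to 5.38). In all, 4 of 14 members measured in this gate were higher in KO and 0 lower, against 8.34% of all genes (4.98% higher, 3.36% lower). The others were Col9a2 with 34 KO and 12 WT counts, Col2a1 with 11 KO and 2 WT counts, and Col4a5 with 10 KO and 1 WT counts. The Col12a1 counts came mainly from projection neurons, set by at least 2 of 6 markers. A count was found in 34 of 567 projection barcodes in P0 KO (6.00%, 95% Clopper-Pearson interval 4.19 to 8.28) and in 2 of 497 in P0 WT (0.402%, 0.0488 to 1.45). The P0 KO barcodes with Col12a1 had a median of 6664 counts, against 4767 for those without. Among genes with at least 30 counts in those 34 barcodes, Nrp2 (a semaphorin receptor) measured 484 CPM with Col12a1 and 48.8 without, and Prox1 (a homeobox gene of dentate gyrus granule neurons) 557 CPM with and 66.3 without. By fold Nrp2 ranked 4 and Prox1 ranked 7 among these genes, and Ifi203, Elmo1 and Ablim3 led. Nrp2 had a count in 28 of the 34 barcodes and Prox1 in 16. Both were named after the values were seen and are a description. Over all projection barcodes Prox1 stood at 101 CPM in P0 KO and 5.27 CPM in P0 WT.

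At E14.5 the summed log2 ratio of the library labelled KO over WT was 0.34 (95% interval 0.30 to 0.39), a 1.27-fold difference. Of 33 members measured, 4 were higher and 2 lower in the library labelled KO, against 6.54% of all 14134 genes (2.3% higher, 4.24% lower), with a median log2 ratio of 0.35 beside 0.06 over all genes. Col3a1 had 2893 counts in the library labelled KO and 512 in WT, at 1.13 (1.00 to 1.27). In E14.5 WT one barcode held 40.8% of the Col3a1 counts. Col6a2 had 242 counts in the library labelled KO and 35 in WT, at 1.42 (0.91 to 1.98), and Col6a1 244 in the library labelled KO and 43 in WT, at 1.14 (0.67 to 1.64). Col3a1, Col6a1 and Col6a2 thus passed the threshold in the library with the KO label at both ages, in pairs that share no library. The share of all genes that did so was not computed, and the E14.5 direction is not one of the knockout. Thinned to 1500 counts, none of these genes passed at both ages (Col3a1 0.81 at E14.5, Col6a1 0.55 and Col6a2 0.55 at P0). Col4a4 had 35 counts in the library labelled KO and 2 in WT, at 2.76 (0.80 to 5.86), but -0.27 with barcodes thinned to 1500 counts. Lower were Col9a2 at -1.07 (-1.46 to -0.68) and Col9a1 at -1.01 (-1.97 to -0.04); 9 of the 18 Col9a1 counts of E14.5 WT were in 1 barcode. Without the barcode with the most collagen counts in each library the summed ratio was 0.54 and Col9a1 lay at -0.01. Without the fibroblast, endothelial, mural and mixed barcodes Col9a1 lay at -0.19 and Col9a2 at -0.39. Col9a1 was also under the threshold with all deposited barcodes (-0.95) and TMM scaling (-0.98), and Col9a2 with the top 5% of Scrublet scores removed (-0.98). With barcodes thinned to 1500 counts the summed ratio was 0.20, and Col3a1 (0.81), Col6a1 (0.44) and Col9a2 (-0.56) were under the threshold. Col1a2 and Col9a3, with log2 ratios of 0.10 (0.00 to 0.20) and 0.04 (-0.11 to 0.19), lay near 0.

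Choroid barcodes could be compared at E14.5, with 131 in the library labelled KO and 23 in WT. Of 23 members measured there, 6 were higher and 3 lower in the library labelled KO, against 22.6% of all genes (11.7% higher, 10.9% lower). Col8a2 measured 208 (175 to 244) CPM in the library labelled KO and 93.4 (62.6 to 134) in WT, at 1.15 (0.57 to 1.78). Its share of choroid barcodes with a count was 48.9% in the library labelled KO and 43.5% in WT. With barcodes thinned as above, the shares were 23.4% (16.4 to 31.7) in the library labelled KO and 26.1% (10.2 to 48.4) in WT. These thinned intervals overlap, so the thinned shares give no order between the libraries. Col9a3 measured 1322 CPM in the library labelled KO and 767 in WT, and Col8a1 222 in the library labelled KO and 135 in WT, both under the threshold. Col1a2 was lower in the library labelled KO, with 103 CPM against 251 in WT, at -1.29 (-1.77 to -0.81). In the E14.5 astroglial gate 1 of 18 members measured was higher in the library labelled KO and 3 were lower, against 13.7% of all genes (7.84% higher, 5.81% lower). The higher one was Col3a1, with 29 counts in 5 barcodes of the library labelled KO and 0 in WT. In the E14.5 neuronal gate 9 of 22 were higher and 1 lower, against 10.5% of all genes (4.6% higher, 5.91% lower), and the 9 (Col1a1, Col1a2, Col3a1, Col4a4, Col4a5, Col5a1, Col9a1, Col18a1 and Col22a1) had between 10 and 39 counts each in the library labelled KO.

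With age, collagen was lower at P0 than at E14.5 in both pairs. The KO-labelled pair also differed in Tsku (0 counts at P0, 74 at E14.5) and in Xist (1 and 6707 counts). In that pair age cannot be told apart from these differences. The summed log2 ratio of P0 over E14.5 was -0.71 (95% interval -0.76 to -0.67) for P0 KO over the library labelled E14.5 KO and -1.32 (95% interval -1.39 to -1.24) in WT. In the pair with the KO label 7 of 36 members measured were higher at P0 and 11 lower, against 19% of all genes (12.8% higher, 6.13% lower). In WT, 2 of 30 were higher and 19 lower, against 11.2% of all genes (6.17% higher, 5.05% lower). The medians were -0.53 in the KO-labelled pair and -1.24 in WT, beside 0.08 (KO-labelled) and 0.07 (WT) over all genes. These pairs share no library. By class, multiplexins measured 15.0 CPM in P0 KO, 9.96 in P0 WT, 54.1 in the library labelled E14.5 KO and 47.8 in E14.5 WT. Transmembrane collagens measured 13.96 CPM in P0 KO, 9.63 in P0 WT, 24.4 in the library labelled E14.5 KO and 15.8 in E14.5 WT, and the fibrillar class 335 CPM in P0 KO, 135 in P0 WT, 619.8 in the library labelled E14.5 KO and 434 in E14.5 WT. Both P0 libraries lay below both E14.5 libraries in each of these classes. The fibril-associated class did not separate by age, at 132 CPM in P0 KO, 75.5 in P0 WT, 126 in the library labelled E14.5 KO and 138 in E14.5 WT. Of 30 members measured in both, 10 were lower at P0 in both, 2 were higher in both and 0 passed the threshold in opposite directions. The share of all genes called the same way in both pairs was not computed. Lower in both were the fibrillar Col1a1, Col3a1 and Col5a2, the type VI genes Col6a1, Col6a2 and Col6a3, the hexagonal Col8a1 and Col8a2, and the multiplexins Col15a1 and Col18a1. Col3a1 had log2 ratios of -1.76 (-1.90 to -1.62) in the KO-labelled pair and -2.68 (-3.03 to -2.35) in WT. Col18a1 had 122 counts in P0 KO, 50 in P0 WT, 664 in the library labelled E14.5 KO and 231 in E14.5 WT, with ratios of -1.74 (-2.03 to -1.45) in the KO-labelled pair and -2.32 (-2.79 to -1.87) in WT. Col8a1 had ratios of -6.88 (-12.19 to -4.38) in the KO-labelled pair and -5.89 (-11.22 to -3.35) in WT, from 1 count in each P0 library. Without the fibroblast, endothelial, mural and mixed barcodes the summed ratio was -0.20 in the KO-labelled pair and -0.45 in WT, and in WT Col15a1 was at 0.25 and Col4a6 at 0.32. Col5a2 then lay at -0.39 and Col15a1 at -0.16 in the KO-labelled pair, and Col5a2 at -0.83 in WT. Without the barcode with the most collagen counts in each library, Col6a1 (-0.53) and Col6a3 (-0.78) were under the threshold in WT, and with the top 5% of Scrublet scores removed Col6a1 was under it in the KO-labelled pair (-0.99) and Col6a3 in WT (-0.96). Thinned, Col6a2 was at -0.34 in WT. Choroid and fibroblast barcodes were fewer at P0 in share of the library, and their part in these ratios was not tested.

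The members higher at P0 in both pairs were Col4a4 and Col5a3, both astroglial. Col4a4 had 47 counts in P0 KO, 40 in P0 WT, 35 in the library labelled E14.5 KO and 2 in E14.5 WT, with log2 ratios of 1.13 (0.47 to 1.81) in the KO-labelled pair and 4.21 (2.27 to 7.31) in WT. With TMM scaling its ratio in the KO-labelled pair was 0.997, under the threshold, so it was then not called in both pairs. Col5a3 had 35 counts in P0 KO, 29 in P0 WT, 6 in the library labelled E14.5 KO and 5 in E14.5 WT, with ratios of 3.25 (1.99 to 4.79) in the KO-labelled pair and 2.43 (1.04 to 4.15) in WT.

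The same direction was found within astroglial barcodes alone. Of 20 members measured in this gate in both pairs, 3 were higher at P0 in both, 2 lower in both and 0 opposite. Of all genes, 27.7% passed the threshold in the KO-labelled pair (18.3% higher, 9.39% lower) and 20.2% in WT (14.1% higher, 6.06% lower). These are shares of single pairs, and the share of all genes called the same way in both was not computed. Col4a4 measured 14.5 CPM in P0 KO, 20.6 in P0 WT, 2.66 in the library labelled E14.5 KO and 0 in E14.5 WT. Col9a1 measured 14.5 CPM in P0 KO, 16.6 in P0 WT, 1.07 in the library labelled E14.5 KO and 0 in E14.5 WT. Col5a3 measured 10.1 CPM in P0 KO, 12.6 in P0 WT, 0.533 in the library labelled E14.5 KO and 3.01 in E14.5 WT. Both P0 libraries lay above both E14.5 libraries for these genes. In E14.5 WT, Col4a4 and Col9a1 had 0 counts in 75 astroglial barcodes. With each of these sums set to the floor of 3 counts, the WT log2 ratios were 2.19 for Col4a4 and 1.88 for Col9a1. These values depend on the floor and are not lower bounds. In the KO-labelled pair the ratios were 2.45 (1.10 to 4.15) for Col4a4, 3.77 (1.82 to 6.86) for Col9a1 and 4.24 (1.64 to 9.59) for Col5a3. Thinned to 1500 counts, 3.07% (1.60 to 5.30) of astroglial barcodes in P0 KO and 3.48% (1.51 to 6.74) in P0 WT had a Col4a4 count. The E14.5 shares were 0.387% (0.0469 to 1.39) in the library labelled KO and 0% (0 to 4.80) in WT. Unthinned shares were 7.67% (P0 KO), 9.57% (P0 WT), 0.954% (labelled E14.5 KO) and 0% (E14.5 WT). Thinned neuronal barcodes had Col4a4 in 0% (P0 KO), 0.292% (P0 WT), 0.216% (labelled E14.5 KO) and 0.216% (E14.5 WT). Thinned astroglial Col9a1 shares were 2.05% (P0 KO), 2.61% (P0 WT), 0% (labelled E14.5 KO) and 0% (E14.5 WT). Those of Col5a3 were 1.53% (P0 KO), 2.17% (P0 WT), 0% (labelled E14.5 KO) and 1.33% (E14.5 WT). In WT the thinned astroglial intervals of P0 and E14.5 overlap for all 3 genes, so they give no order. In the KO-labelled pair they overlap for Col5a3 only.

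Col2a1 and Col18a1 were the genes lower at P0 in astroglial barcodes of both pairs. Col2a1 measured 43.9 CPM in P0 KO, 27.2 in P0 WT, 134 in the library labelled E14.5 KO and 84.2 in E14.5 WT, with log2 ratios of -1.61 (-1.94 to -1.29) in the KO-labelled pair and -1.63 (-2.25 to -1.02) in WT. The share of astroglial barcodes with a Col2a1 count, thinned to 1500 counts, was 5.37% in P0 KO, 5.22% in P0 WT, 18.2% in the library labelled E14.5 KO and 14.7% in E14.5 WT, and unthinned 15.9% (P0 KO), 12.2% (P0 WT), 32.6% (labelled E14.5 KO) and 41.3% (E14.5 WT). Col18a1 measured 6.33 CPM in P0 KO, 7.96 in P0 WT, 27.2 in the library labelled E14.5 KO and 22.5 in E14.5 WT. The astroglial pattern with age was thus not one direction for all collagens. Col22a1, the gene with the highest astroglial share of its counts, measured 12.7 CPM in P0 KO, 21.9 in P0 WT, 36.8 in the library labelled E14.5 KO and 42.1 in E14.5 WT, passing the threshold in the KO-labelled pair at -1.54 (-2.18 to -0.93) and not in WT at -0.94 (-1.71 to -0.16); the difference between the pairs was not tested.

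**Figure D5:**
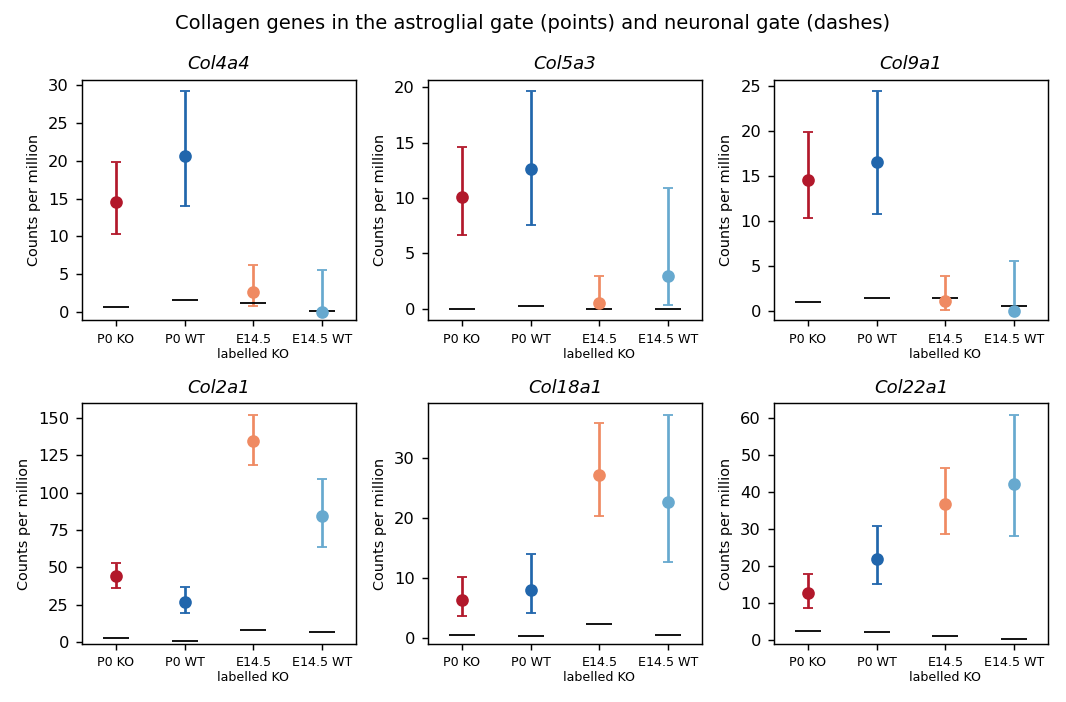
Levels of collagen genes in astroglial barcodes (points, CPM, 95% Poisson intervals) beside their level in neuronal barcodes (dashes), by library, 1 panel a gene. Col4a4, Col5a3 and Col9a1 are higher in both P0 libraries than in both E14.5 libraries, and Col2a1 and Col18a1 are lower.

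Genes that make, bind or break down collagen had medians nearer 0 at P0 than the collagens. Of 25 genes of collagen biosynthesis and crosslinking measured, 1 was higher in P0 KO and 0 lower, with a median log2 ratio of 0.34, against 4.79% of all genes called (3.75% higher, 1.05% lower). That gene was the prolyl hydroxylase subunit P4ha2, with 46 counts in KO and 11 in WT. Serpinh1, the collagen chaperone of the endoplasmic reticulum, had 608 KO and 235 WT counts, at 0.82 (0.60 to 1.05), and the peptidyl-prolyl isomerase Ppib, the disulfide isomerase P4hb and the procollagen export factor Mia3 lay at 0.30, 0.21 and 0.07. In the list of collagen receptors and uptake no gene passed the threshold, 0 of 10 in either direction, with a median of 0.22. Integrin Itgb1, the type III collagen receptor Adgrg1, the kinase Ddr1 and Cd93 lay at 0.22, 0.11, 0.22 and -0.20. Over the 4 libraries, endothelial barcodes held 47.6% and mixed barcodes 49.0% of the Cd93 counts, and binding of collagen by Cd93 was not examined. Basement membrane partners had 3 of 13 higher and 0 lower in P0 KO, with a median of 0.43. The linkers of laminin and type IV collagen were among them, Nid1 with 643 KO and 209 WT counts at 1.07 (0.85 to 1.30), and Nid2 with 274 KO and 71 WT counts at 1.40 (1.02 to 1.80). The other was the laminin chain Lamc3, with 25 KO and 6 WT counts. Sparc, Agrn and Lamb1 lay at 0.31, 0.27 and 0.49. Of 11 genes of collagen degradation and its inhibitors, 2 were higher and 0 lower, with a median of 0.46; they were the gelatinases Mmp2 (63 KO and 19 WT counts) and Mmp9 (70 KO and 10 WT counts). The inhibitors Timp2 and Timp3 and the membrane proteases Mmp14 and Mmp16 lay at 0.46, 0.49, 0.34 and -0.05. All 4 medians stood above the 0.05 of all genes and below the 0.91 of the collagens.

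At E14.5 the same lists had 0 higher and 2 lower of 26 for biosynthesis, 0 higher and 1 lower of 11 for receptors, 2 higher and 0 lower of 13 for basement membrane partners, and 1 higher and 2 lower of 11 for degradation, in the library labelled KO against WT, beside 6.54% of all genes called (2.3% higher, 4.24% lower). Mmp9, with 112 counts in the library labelled KO and 172 in WT, had a log2 ratio of -1.99 (-2.34 to -1.63), opposite in sign to P0. With age, the KO-labelled pair had 4 biosynthesis genes of 26 higher and 2 lower at P0, 2 higher and 1 lower of 11 receptors, 1 higher and 3 lower of 13 basement membrane partners, and 3 higher and 0 lower of 12 degradation genes, beside 19% of all genes called (12.8% higher, 6.13% lower). WT had 3 higher and 3 lower of 25, 1 and 1 of 10, 1 and 2 of 12, and 1 and 2 of 11 for these lists, beside 11.2% of all genes called (6.17% higher, 5.05% lower).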

How the data were processed

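Each of the 4 libraries is a deposited matrix of counts per gene and cell barcode, not normalized, per the file headers and values. The authors' preparation used a bead-based kit, per the labels' protocols. FastQC 0.12.1, R 4.3.2, Seurat 5 and the build GRCm39 are named per the submitters' processing notes. The aligner, the counting, any collapse of molecular identifiers and the use of strand were not given in the sources used here.

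A barcode was analysed if it held 500 or more counts and 300 or more detected genes, with no more than 10% of its counts from mitochondrial transcripts. Scrublet (scanpy 1.11.5, expected rate 5%) ran per library, and its calls were removed: 6 in P0 KO, 3 in P0 WT, 0 in the library labelled E14.5 KO and 2 in E14.5 WT. Gates were set by marker lists without collagens. Counts were summed per library, or per library and gate, and divided by the total of that sum.

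With 1 library a group no test was run. Levels carry exact Poisson intervals, shares Clopper-Pearson intervals and log2 ratios conditional binomial intervals, all at 95%, and they cover counting error only. A member was measured with at least 30 counts over 2 libraries, or at least 10 counts over 2 gate sums of at least 20 barcodes each, and called at a log2 ratio of 1 or more in size. A group at 0 was set to a floor of 3 counts. The summing and ratio steps were tested on simulated data.

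Every collagen with at least 30 counts over the 4 libraries is described by its class. Each pathway list is given with up to 4 members with the most counts and every member called at P0 with at least 100 counts. Other pathway genes were named after their values were seen. The members, marker lists and pathway lists were chosen with earlier results of these data known.

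Alternatives were all deposited barcodes, a minimum of 1000 counts, barcodes thinned to 1500 counts, and minimums of 10 and 1 counts. Scaling alternatives were TMM factors (edgeR 4.0.16 in R 4.3.3) and median-of-ratios factors. Others removed the 5% of barcodes with the highest Scrublet score, or the barcode with the most collagen counts. Another left out fibroblast, endothelial, mural and mixed barcodes, and kept choroid and microglial ones. Gates were also set with 1 marker fewer or more, or with mixed barcodes assigned to their leading list. Promoter windows came from a RefSeq table of GRCm38.p6 and were not joined to coordinates of another build. Intervals used scipy 1.17.1 and figures matplotlib 3.10.9, under Python 3.11.15 with pandas 2.3.3 and numpy 2.4.6.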

Additional observations from a re-analysis of the deposited data

Results flagged for a closer look

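Col12a1 moved in opposite directions with age in the neuronal gate of the 2 pairs of libraries. It held 76 counts in P0 KO and 16 in the library labelled E14.5 KO, a log2 ratio of 3.48 (95% interval 2.69 to 4.36). It held 5 counts in P0 WT and 11 in E14.5 WT, a log2 ratio of -1.001 (-2.88 to 0.64), whose interval includes 0. As levels these were 18.4 CPM in P0 KO, 1.40 in P0 WT, 1.65 in the library labelled E14.5 KO and 2.79 in E14.5 WT, so P0 KO stood apart from the other 3 libraries. With 1 library a group the difference between the pairs was not tested. Prox1, a marker of dentate granule neurons, was also higher in projection barcodes of P0 KO, at 101 CPM against 5.27 CPM in P0 WT. It had a count in 16 of the 34 P0 KO projection barcodes with Col12a1, and its part in the result was not tested.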

How the results depend on the processing

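The main log2 ratios of summed collagen were 0.95 for P0 KO over P0 WT, 0.34 for the library labelled E14.5 KO over E14.5 WT, -0.71 for P0 KO over the library labelled E14.5 KO and -1.32 for P0 WT over E14.5 WT. None changed sign under any alternative. Members called higher and lower numbered 13 and 0 at P0, 4 and 2 at E14.5, 7 and 11 with age in the KO-labelled pair, and 2 and 19 with age in WT. With all deposited barcodes 1 member was lower at E14.5. Thinned to 1500 counts, the summed ratio was 1.125 at P0 and 0.20 at E14.5, with 2 members higher and 0 lower at E14.5 and Col4a4 reversed at -0.27. With age it was -0.56 in the KO-labelled pair, with 4 members higher, and -1.49 in WT, with 0 higher and 8 lower. TMM scaling gave 1 member lower at E14.5, and -0.85 and -1.39 with age (KO-labelled pair, then WT). Median-of-ratios scaling gave -0.84 and -1.39 with age, in that order. A minimum of 1 count gave 2 members lower at P0 and 4 at E14.5. With the top 5% of Scrublet scores removed, the ratio was 0.86 at P0, 0.46 at E14.5 with 1 member lower, and -0.78 and -1.18 with age. Without the top collagen barcode of each library it was 0.54 at E14.5 with 1 member lower, and -0.83 and -1.21 with age. Without fibroblast, endothelial, mural and mixed barcodes it was 0.66 at P0 with 7 members higher, and 0.42 at E14.5 with 0 lower. With age that setting gave -0.20 with 7 lower in the KO-labelled pair and -0.45 with 4 higher and 8 lower in WT, where Col4a6 (0.32) and Col15a1 (0.25) reversed. These 4 kinds of barcodes held 69.5% of collagen counts and were 3.72% of barcodes. With 1 marker fewer per gate they held 74.9% and were 4.63% of barcodes. They held 65.7% of the counts with 1 marker more, 67.3% with mixed barcodes assigned to their leading list, 67.9% without the top 5% of Scrublet scores and 66.9% without the top barcode of each gate. With mixed barcodes assigned, Col14a1 reversed to -0.11 in the E14.5 choroid gate. The cause of these changes was not tested. Among values of single members and of single gates, 2413 were labelled the same, 189 moved and 4 reversed. Ratios, levels and shares were the same within the interval of the main value, and counts of members within a fold limit. The 2413 include 130 ratios for each of the minimums of 10 and 1 counts. Those settings reuse the main sums, so their ratios could not move.

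No paired analysis was possible because each group is 1 library and the labels carry no replicate numbers. No library was left out for the same reason, and differences between animals cannot be told apart from differences between genotypes, ages or dissections. Small gates limit the depth: P0 WT had 6 fibroblast barcodes and 0 choroid barcodes, so members of these cells rest on few barcodes there.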

Other observations

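At P0, Col9a3 was also counted in inhibitory neurons and in microglial barcodes. Inhibitory neurons are a part of the neuronal gate, so their barcodes also enter the neuronal values above. Among them Col9a3 had 60 counts in P0 KO and 23 in P0 WT, a log2 ratio of 1.72 (95% interval 1.00 to 2.48). In microglial barcodes it had 18 counts in 10 of 53 barcodes of P0 KO and 0 counts in 22 barcodes of P0 WT, and one barcode held 38.9% of the KO counts. Col16a1, a fibril-associated collagen, measured 24.2 CPM in astroglial barcodes of P0 KO, 19.9 in P0 WT, 9.59 in the library labelled E14.5 KO and 10.5 in E14.5 WT, while neuronal barcodes stood at 0.762 CPM or less in every library. Col4a5 was nearly level in astroglial barcodes, at 41.0 CPM in P0 KO, 32.5 in P0 WT, 34.6 in the library labelled E14.5 KO and 31.6 in E14.5 WT. Barcodes that met no gate numbered 349 in the library labelled E14.5 KO, where summed collagen was 883 CPM, and 14 in E14.5 WT, where it was 149 CPM.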
